A study of Homo sapiens with 12 samples.

Results

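The enzymes of serine synthesis and of the folate one-carbon cycle were followed in 12 RNA-seq libraries of MDA-MB-231 cells, an established human triple-negative breast cancer line. The 10 genes were taken by name from both deposited tables, joined on the gene identifier, out of 60558 genes that the tables share. They are PHGDH, PSAT1 and PSPH of serine synthesis, SHMT1 and MTHFD1 of the cytosolic folate cycle, and SHMT2, MTHFD2, MTHFD2L, MTHFD1L and ALDH1L2 of the mitochondrial one. All 10 were found in both tables.

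The study asked which genes the RNA-binding protein NONO and the glycolytic enzyme PKM2 control together. NONO was knocked down in 1 experiment and PKM2 in the other, each with its own negative control (NC) cells, whose genotype is labelled as wild type, and each of the 4 groups had 3 libraries. The series text names siRNA as the knockdown reagent, without its sequences or the time of harvest. All groups are the same unsorted line grown in culture, with no second line. The labels do not say that repeats are separate cultures, so P values measure the spread between these libraries, which may be technical.

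Serine is made from 3-phosphoglycerate, an intermediate of glycolysis, by PHGDH, PSAT1 and PSPH in turn. SHMT1 in the cytosol and SHMT2 in the mitochondrion split serine into glycine and a carbon unit carried by folate. The MTHFD enzymes pass that unit between folate forms, and it is used to build purines and thymidylate and to remake methionine. PKM2 acts downstream in the same glycolytic route, and serine is a known activator of its enzyme activity.

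Each targeted gene was lowered in every library of its own knockdown. NONO was between 358 and 391 CPM (counts scaled to library size, with trimmed mean of M values (TMM) factors within each experiment) in its NC libraries and between 61.8 and 64.3 after its knockdown. PKM, the gene that encodes PKM2 and its splice form PKM1, was between 2211 and 2324 CPM in its NC libraries and between 218 and 234 after its knockdown. These are whole-gene values, so the PKM2 form alone was not measured. Each targeted gene was also called in the other experiment, by the test used below for the enzymes. On the log2 scale PKM rose by 0.26 after NONO knockdown and NONO rose by 0.30 after PKM2 knockdown. The estimated counts per library summed to 19861762 to 20981712 in the NONO experiment and to 24097948 to 28455268 in the PKM2 experiment. NC replicate 1 of NONO and PKM2-knockdown replicate 3 stood apart from their replicates, with a chi-square per degree of freedom over genes of 8.29 to 10.2 and 10.5 to 12.3 against 2.47 and 3.34 between the remaining pair of each group. The mesenchymal marker VIM was at least 3383 TPM (transcript abundance corrected for gene length and depth) on average in all 4 groups, and KRT8, KRT18 and CD44 at least 126 TPM. ESR1 and PGR, the receptors this line lacks, had at most 11 counts in a library, and ERBB2 averaged 14.3 to 30.8 TPM. Among markers of other cell types, PTPRC, ALB, CDH5 and LYZ had at most 9 counts and the endothelial marker PECAM1 had at most 62. Some markers moved with the knockdowns by the test used below for the enzymes. After NONO knockdown PECAM1 rose by 0.86 on the log2 scale and VIM by 0.28, and KRT8 fell by 0.37. After PKM2 knockdown KRT18 rose by 0.90, KRT8 by 0.41 and VIM by 0.14, and ERBB2 fell by 0.86, while CD44 was called after neither. The part of these shifts in the results on the enzymes was not tested.

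The upstream sequences of MTHFD1, MTHFD1L and SHMT1 are shown first, because these were the enzymes lowered after PKM2 knockdown. RefSeq windows on GRCh38.p14 were given for 7 of the 10 genes (11 windows) and were searched on both strands for TGATGNAA, the composite element that ATF4 binds with C/EBP proteins, and for the E-box CACGTG, which MYC and USF proteins bind. PSPH, SHMT2 and ALDH1L2 had no entry. Each line below gives the 250 bases before the start, 5′ to 3′ along the gene, with motif letters in capitals. MTHFD1 lies on the plus strand and its window is chr14:64388103-64388352. MTHFD1L also lies on the plus strand, and the window shown, chr6:150866197-150866446, is 1 of 4. SHMT1 lies on the minus strand, with the window chr17:18363551-18363800.
MTHFD1: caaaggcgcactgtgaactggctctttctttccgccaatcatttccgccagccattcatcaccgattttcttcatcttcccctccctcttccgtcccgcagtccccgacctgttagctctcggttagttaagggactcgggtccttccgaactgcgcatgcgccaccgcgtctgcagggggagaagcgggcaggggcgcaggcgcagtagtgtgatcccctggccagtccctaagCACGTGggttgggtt
MTHFD1L: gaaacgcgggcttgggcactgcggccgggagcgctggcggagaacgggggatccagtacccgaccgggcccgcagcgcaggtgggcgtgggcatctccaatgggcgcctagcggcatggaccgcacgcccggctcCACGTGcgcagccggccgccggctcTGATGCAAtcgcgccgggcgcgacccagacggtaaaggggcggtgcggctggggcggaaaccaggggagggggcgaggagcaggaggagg
SHMT1: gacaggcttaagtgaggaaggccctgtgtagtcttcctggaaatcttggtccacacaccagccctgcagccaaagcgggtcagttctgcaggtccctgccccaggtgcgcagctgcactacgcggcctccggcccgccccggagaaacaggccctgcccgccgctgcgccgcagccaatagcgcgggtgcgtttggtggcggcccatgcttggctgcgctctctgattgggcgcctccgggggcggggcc

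The MTHFD1 window held an E-box whose first base lay 15 bases upstream of the start. The MTHFD1L window shown held an E-box at 115 bases and the composite element at 90 bases upstream. It is a window that holds both whole, and the motifs lie elsewhere relative to the other starts of this gene. From the start at 150866486 the same letters lie 154 and 129 bases upstream, and from the start at 150866333 the E-box spans the start and the element lies 25 bases downstream. The window of the start at 151007008 held neither. SHMT1 held neither, nor did PHGDH, PSAT1, MTHFD2 and MTHFD2L in the windows given. Over all 35116 windows of this length, 6.345% held the E-box and 3.144% the composite element, and the motifs in the windows shown do not overlap each other. Counted by gene, 7.728% of 27305 genes held the E-box in a window and 3.886% the composite element. Among the 7 enzymes with windows, 2 held the E-box and 1 the composite element. GC content was 60.0% in the MTHFD1 window, 74.4% in that of MTHFD1L and 68.4% in that of SHMT1. In the GENCODE 29 annotation the MTHFD1 and MTHFD1L windows fall inside the gene, since an annotated transcript begins farther upstream. A match describes letters only, and binding was not measured.

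In NC cells the cycle was expressed unevenly. On the TPM scale, which divides by gene length, SHMT2 was highest at 275.8 ± 5.67 (SD, n = 3) in the NONO experiment's NC group, followed by MTHFD1 at 163.9 ± 5.50 and PSAT1 at 126.4 ± 1.18. The NC group of the PKM2 experiment, whose table was normalized separately, gave the same leading order with 268.0 ± 6.33, 156.0 ± 5.23 and 117.2 ± 1.57. The TPM ranges of these 3 genes did not overlap each other in either group. PHGDH, MTHFD2, PSPH, MTHFD1L and SHMT1 lay between 24.4 and 49.6 TPM on average, and each overlapped its neighbour in the order in the NONO experiment. In the PKM2 experiment MTHFD2 was above PHGDH and PHGDH above PSPH without overlap, while PSPH, MTHFD1L and SHMT1 overlapped their neighbours. MTHFD2L was low at 11.1 ± 0.669 and 14.3 ± 0.791 TPM, below all of these.

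ALDH1L2, the mitochondrial enzyme that oxidizes formyl-folate to carbon dioxide, was listed at 0 to 6 estimated counts per library and at most 0.17 TPM. It did not pass the filter on low counts, and no change in it was detectable at this depth. The other 9 genes passed in both experiments. The plot of values by library shows all 10.

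**Figure D1:**
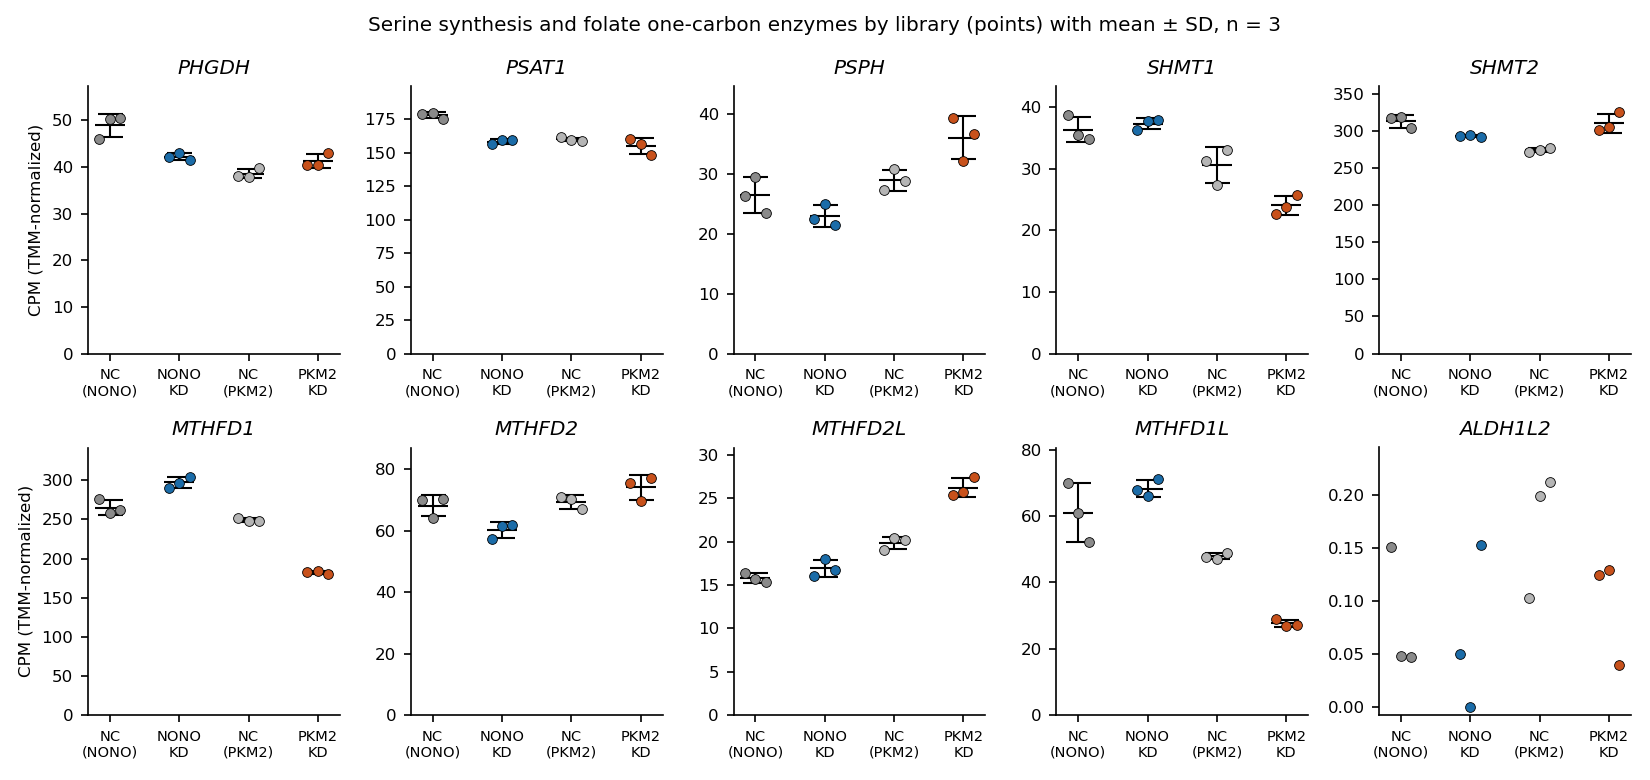
CPM (TMM-normalized within each experiment, linear axes) of each enzyme in the 4 groups. Points are libraries, and bars are the mean ± SD (n = 3), except for ALDH1L2, where only the libraries are drawn. The 3 PKM2-knockdown libraries of MTHFD1L sit between 26.8 and 28.8 CPM, all below the NC libraries at 47.1 to 48.9, while ALDH1L2 never reaches 0.25.

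After NONO knockdown 4 of the 9 enzymes tested changed at an adjusted P below 0.05 (edgeR's quasi-likelihood test, Benjamini-Hochberg over all genes tested), against 33.4% of all 14832 genes tested. PHGDH, PSAT1 and MTHFD2 fell, and MTHFD1 rose. Among all genes 17.2% were lowered and 16.2% raised. The total is not far from its background share. The 3 lowered of 9 are a larger share than that of all genes, but 9 enzymes are too few to tell these apart. The median log2 fold change of the 9 enzymes was -0.09, against -0.01 for all genes. The RNA is from bulk cultures, so less of a transcript in each cell and fewer cells that express it cannot be told apart.

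After PKM2 knockdown 6 of the 9 enzymes changed by the same test, against 68.4% of 15524 genes. MTHFD1L, MTHFD1 and SHMT1 fell, and MTHFD2L, PSPH and SHMT2 rose. Among all genes 34.7% were lowered and 33.6% raised, so 3 of 9 in each direction is close to the background. The median log2 fold change of the enzymes was 0.09, against -0.015 for all genes. None of the enzymes changed over 2-fold in either experiment.

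The knockdowns were compared by the interaction test, the PKM2 change minus the NONO change in 1 edgeR fit of all 12 libraries. Of the 9 enzymes 8 differed between the knockdowns, against 53.1% of 15995 genes. PSAT1 was the exception. No library is shared between the experiments, but the knockdown and the experiment it was done in cannot be told apart beyond each experiment's own NC group. The values of each enzyme follow in the order of the pathway.

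**Figure D2:**
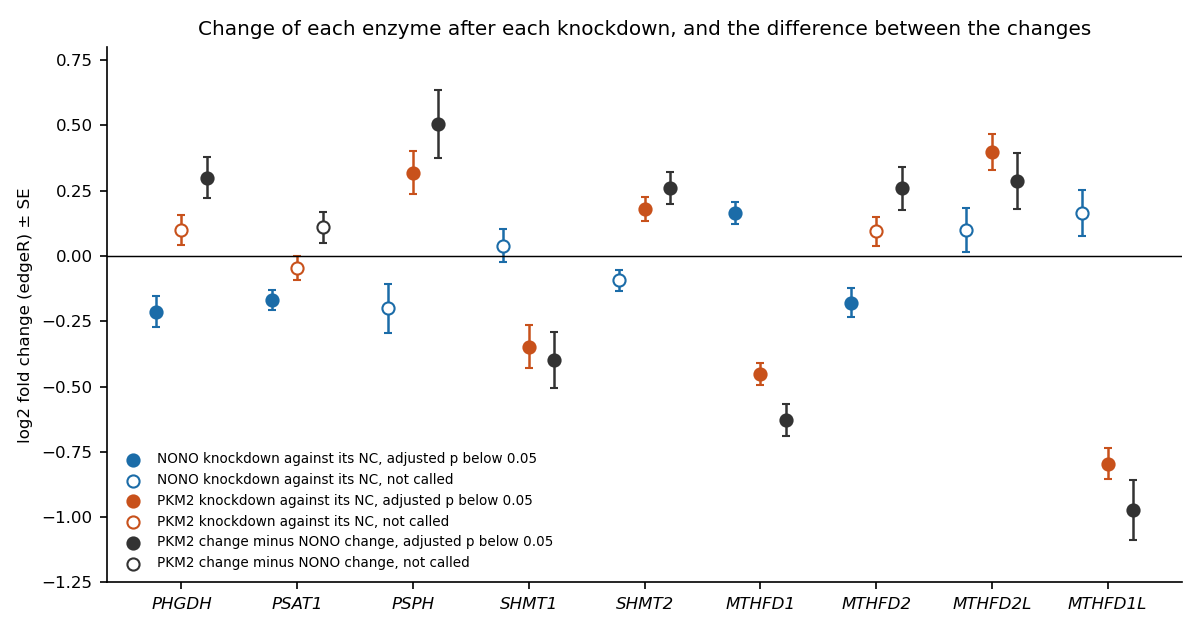
The log2 fold change ± SE of each tested enzyme (edgeR, 3 libraries per group) after NONO knockdown, after PKM2 knockdown, and the difference of the changes. Filled points have an adjusted P below 0.05. MTHFD1L shows the lowest PKM2 value at -0.80 and MTHFD2L the highest at 0.40, while every NONO value lies between -0.21 and 0.16.

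PHGDH, the dehydrogenase that commits 3-phosphoglycerate to serine, lies at chr1:119648411-119744226 on the plus strand (GENCODE 29, GRCh38, as for all gene spans here). It was at 46.0, 50.2 and 50.5 CPM in the NONO experiment's NC libraries and at 42.0, 43.1 and 41.5 after knockdown. All knockdown libraries were below all NC libraries. The fall was 0.21 ± 0.058 (SE) on the log2 scale, or 13.8% (edgeR, adjusted P = 0.0154). In the PKM2 experiment it was at 38.1, 37.9 and 39.7 CPM in NC libraries and at 40.5, 40.4 and 43.0 after knockdown. The knockdown libraries were slightly higher without overlap, but the difference of 0.10 ± 0.058 was not called (edgeR, adjusted P = 0.15). The changes differed between the knockdowns by 0.30 ± 0.079 (edgeR interaction, adjusted P = 0.00409).

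PSAT1, the aminotransferase of the second step (chr9:78297143-78330093, plus strand), was at 178, 179 and 175 CPM in NC libraries and at 156, 159 and 159 after NONO knockdown. The groups were far apart relative to their spread. The fall was 0.17 ± 0.039, or 11.1% (edgeR, adjusted P = 0.00642), and it stayed below 0.05 with any 1 library left out. After PKM2 knockdown PSAT1 was at 160.0, 156 and 148 CPM against 161, 159 and 159 in NC libraries. These groups overlapped, with a difference of -0.05 ± 0.047 (edgeR, adjusted P = 0.406). The interaction value of 0.11 ± 0.060 was not called (edgeR, adjusted P = 0.137).

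PSPH, the phosphatase that releases serine (chr7:56011051-56051604, minus strand), was the least abundant enzyme of serine synthesis per length in both NC groups. It was at 26.3, 29.5 and 23.6 CPM in NC libraries and at 22.4, 25.1 and 21.6 after NONO knockdown, which overlap (-0.20 ± 0.095, edgeR, adjusted P = 0.13). It was at 27.3, 30.8 and 28.8 CPM in NC libraries and at 39.4, 32.2 and 36.7 after PKM2 knockdown, a rise of 0.32 ± 0.081 or 24.7% (edgeR, adjusted P = 0.00424). All PKM2-knockdown libraries were above their NC libraries. The changes differed by 0.51 ± 0.13 (edgeR interaction, adjusted P = 0.00333). PSPHP1, an unprocessed pseudogene of PSPH on the same chromosome (chr7:55764797-55773288), had 0 or 1 count in the NONO libraries and 130 to 162 in the PKM2 libraries. Reads may therefore be split between the copies, and differently in each experiment. In the NC libraries of the PKM2 experiment PSPHP1 was at 8.73, 9.99 and 11.45 TPM, and PSPH averaged 30.2 against 38.2 for PHGDH. The rank of PSPH in that group may depend on the split. The tables list another length for 1565 of the genes they share, though for 0 of the 10 enzymes, so they do not hold the same gene annotation, and the interaction value of PSPH carries that limit. With the PSPHP1 counts added, PSPH still rose after PKM2 knockdown by 0.27 on the log2 scale (edgeR, adjusted P = 0.00778) and the interaction was 0.46 (edgeR, adjusted P = 0.00541), an alternative chosen after seeing the data. Of the 14 pseudogenes named after an enzyme, the others had at most 1 count in a library.

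The summed TPM of the 3 serine synthesis enzymes was 214 ± 5.54 in NC cells and 177 ± 5.13 after NONO knockdown (SD, n = 3), with no overlap. In the PKM2 experiment the sums were 186 ± 4.85 and 171 ± 12.3, and they overlapped. These sums are given as a description and were not tested.

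SHMT1, the cytosolic serine hydroxymethyltransferase (chr17:18327860-18363563, minus strand), was at 31.3, 27.4 and 33.1 CPM in the NC libraries of the PKM2 experiment and at 22.7, 23.7 and 25.8 after knockdown. The knockdown libraries were all lower. The fall was 0.35 ± 0.083, or 21.4% (edgeR, adjusted P = 0.00283). In the NONO experiment it was at 38.7, 35.5 and 34.8 CPM in NC libraries and at 36.3, 37.8 and 37.9 after knockdown, which overlap (0.04 ± 0.063, edgeR, adjusted P = 0.681). The interaction was -0.40 ± 0.108 (edgeR, adjusted P = 0.00473).

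SHMT2, its mitochondrial counterpart and the most abundant enzyme of the group per length (chr12:57229327-57234935, plus strand), moved the other way. It was at 272, 275 and 277 CPM in NC libraries and at 302, 306 and 326 after PKM2 knockdown, a rise of 0.18 ± 0.046 or 13.2% (edgeR, adjusted P = 0.0047). The groups did not overlap, and the third knockdown library, which stood apart over all genes, was the highest. In the NONO experiment it was at 318, 319.8 and 304 CPM in NC libraries and at 294, 296 and 292 after knockdown. All knockdown libraries were lower, yet the difference of -0.09 ± 0.039 was not called (edgeR, adjusted P = 0.0882). The interaction was 0.26 ± 0.061 (edgeR, adjusted P = 0.00174). Of the 4838 annotated exonic bases of SHMT2, 427 lie opposite the antisense gene AC137834.2 and 33 opposite NDUFA4L2.

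MTHFD1, a cytosolic enzyme that combines several activities of the folate cycle in 1 protein (chr14:64388031-64463457, plus strand), was called in both experiments with opposite signs. It was at 276, 258 and 262 CPM in NC libraries and at 290.3, 297 and 305 after NONO knockdown, a rise of 0.16 ± 0.042 or 12.1% (edgeR, adjusted P = 0.0112). It was at 252, 248 and 248 CPM in NC libraries and at 182, 184 and 181 after PKM2 knockdown, a fall of 0.45 ± 0.042 or 26.8% (edgeR, adjusted P = 1.72e-06). Neither pair of groups overlapped. The changes differed by -0.63 ± 0.061 (edgeR interaction, adjusted P = 1.58e-07). Of its 9377 annotated exonic bases, 756 lie opposite the antisense gene AL122035.2 and 178 opposite ZBTB25.

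MTHFD2, the mitochondrial dehydrogenase and cyclohydrolase known for its high expression in tumours (chr2:74198562-74217565, plus strand), was at 70.0, 64.2 and 70.3 CPM in NC libraries and at 57.4, 61.5 and 61.9 after NONO knockdown. The knockdown libraries were lower without overlap. The fall was 0.18 ± 0.056, or 11.6% (edgeR, adjusted P = 0.0293). After PKM2 knockdown it was at 75.5, 69.6 and 77.4 CPM against 71.1, 70.5 and 67.0, which overlap (0.09 ± 0.057, edgeR, adjusted P = 0.169). The interaction was 0.26 ± 0.082 (edgeR, adjusted P = 0.0132). MTHFD2 shares 1324 of 4870 exonic bases with SLC4A5 on the opposite strand, and whether the counting used strand was not stated in the sources used here.

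MTHFD2L, a less abundant relative with the same activities (chr4:74114174-74303099, plus strand), was at 19.1, 20.4 and 20.2 CPM in NC libraries and at 25.4, 25.7 and 27.4 after PKM2 knockdown. The groups were well separated. The rise was 0.40 ± 0.069, or 31.8% (edgeR, adjusted P = 0.000299), the largest rise among the 9 enzymes in the 2 experiments. In the NONO experiment it was at 16.4, 15.7 and 15.3 CPM in NC libraries and at 16.1, 18.0 and 16.7 after knockdown, which overlap (0.10 ± 0.084, edgeR, adjusted P = 0.419). The interaction was 0.29 ± 0.106 (edgeR, adjusted P = 0.0306). That call was lost with any of 4 single libraries left out, namely the first or the third NONO-knockdown library, the first NC library of the PKM2 experiment or the third PKM2-knockdown library (edgeR, adjusted P up to 0.076).

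MTHFD1L, the mitochondrial synthetase that releases formate for export to the cytosol (chr6:150865549-151101887, plus strand), showed the largest change of the 9. It was at 47.8, 47.1 and 48.9 CPM in NC libraries and at 28.8, 26.8 and 27.2 after PKM2 knockdown. The fall was 0.80 ± 0.059, or 42.4% (edgeR, adjusted P = 2.21e-07), and the groups were separated by many times their spread. In the NONO experiment it was at 70.0, 60.9 and 52.2 CPM in NC libraries and at 67.7, 66.0 and 71.1 after knockdown. The NC libraries spread over the knockdown ones, and the difference of 0.16 ± 0.088 was not called (edgeR, adjusted P = 0.181). The first NC library, which stood apart over all genes, was the highest, and without it the value was 0.28 (edgeR, adjusted P = 0.000867). The changes differed by -0.97 ± 0.115 (edgeR interaction, adjusted P = 1.76e-06), the largest difference between the knockdowns among the 9.

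Without 1 library at a time the number of enzymes called after NONO knockdown was 1 to 5, and PHGDH and MTHFD2 each lost their call in 4 of 6 such fits (adjusted P up to 0.0732 and 0.127) and MTHFD1 in 2 (adjusted P up to 0.0654). A single enzyme, PSAT1, was called without the third NONO-knockdown library, where 3558 of 15171 genes were called. Over all genes such fits called from 3554 of 15149 to 6249 of 15170 after NONO knockdown. After PKM2 knockdown the same 6 enzymes were called in all 6 such fits, among them the fit without the third knockdown library. A P value above 0.05 does not show that an enzyme did not change.

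The PKM2 rises depended on the scale. On log2(TPM + 1) with limma, over genes that averaged 1 TPM or more, PSPH gave 0.01 (adjusted P = 0.913), SHMT2 0.02 (adjusted P = 0.71) and MTHFD2L 0.18 (adjusted P = 0.0573), and none of the 3 was called. The falls of MTHFD1L (-0.64 with a pseudocount of 0.1), MTHFD1 and SHMT1 remained called on this scale, and PSAT1 gave -0.18 (adjusted P = 0.0467). Over all genes the median PKM2 change was -0.105 with a pseudocount of 0.1, against -0.015 on the count scale, so a TPM change of 0 lies above that of the median gene. PHGDH and MTHFD2, which were not called, turned to -0.06 and -0.15. After NONO knockdown the TPM scale gave 0.09 for MTHFD1 (limma, adjusted P = 0.198) and -0.17 for SHMT2 (limma, adjusted P = 0.0211). The rise of MTHFD1 was thus lost and a fall of SHMT2 was called. PSPH averaged 38.6 TPM in NC libraries and 29.4 after NONO knockdown, without overlap on this scale. Its change reached -0.40 at the lowest over all settings and was called under none.

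The gap between the scales can be followed in the number of estimated counts per TPM, taken relative to the median gene of each library. This ratio tracks the transcript length that the authors' estimation assigned to a gene. For PSPH it was 0.58 to 0.611 in NC libraries and 0.636 to 0.695 after PKM2 knockdown, and 0.40 to 0.417 against 0.425 to 0.478 in the NONO experiment. For MTHFD1L it was 1.08 to 1.17 in NC libraries and 0.864 to 1.04 after PKM2 knockdown, the largest drop among the 9 enzymes. Transcript forms were not analysed here, and their part in the result was not tested.

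Fold changes after PKM2 knockdown also followed GC content over all genes, with bin medians from 0.174 in the genes of lowest GC to -0.256 in those of highest GC and a lowest bin at -0.30. With the trend of length and GC content subtracted, PHGDH (0.24, adjusted P = 0.00279) and PSAT1 (-0.15, adjusted P = 0.016) were called as well, and SHMT2 moved to 0.34 and MTHFD2L to 0.23. The plot of the enzymes under each way of processing shows these shifts.

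**Figure D3:**
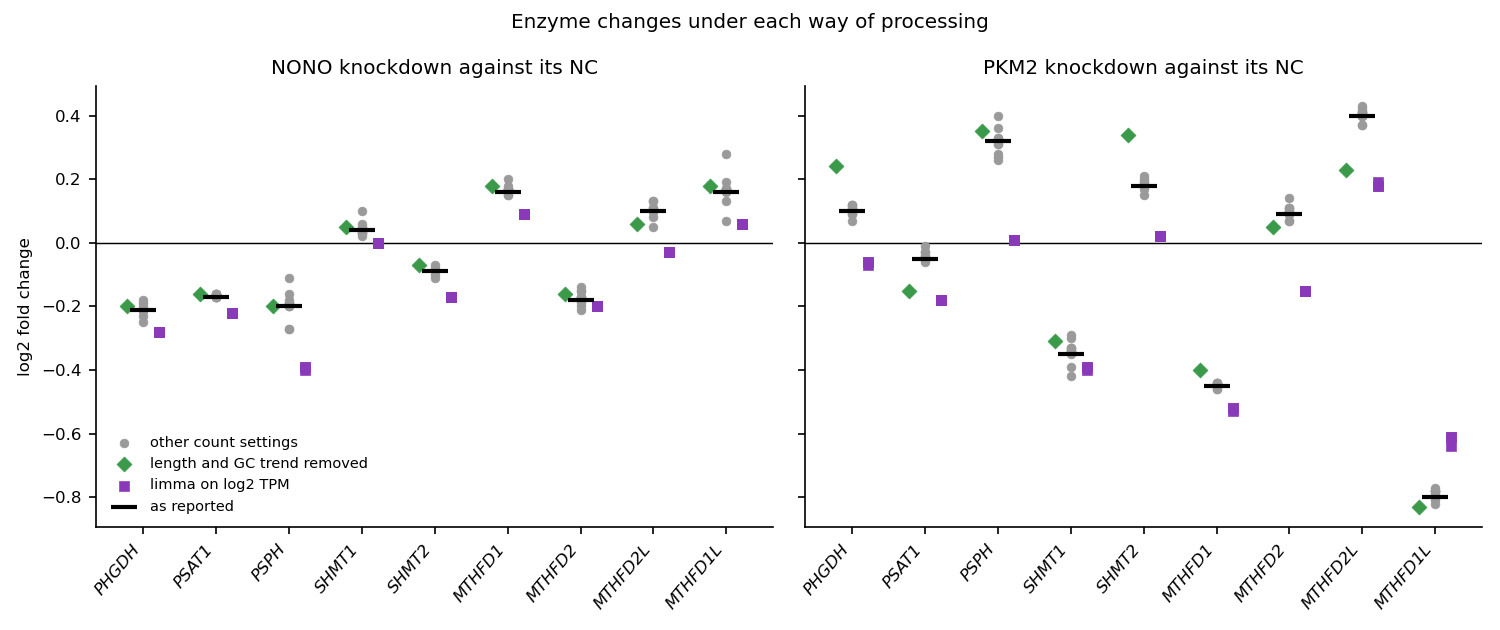
The log2 fold change of each enzyme as reported (black bar), under other settings of the count test (grey, single libraries left out included), with the length and GC trend removed (green) and with limma on log2 TPM (purple). In the PKM2 panel PSPH drops from 0.32 to 0.01 and SHMT2 from 0.18 to 0.02 on the TPM scale, while MTHFD1L stays between -0.83 and -0.61.

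The folate enzymes were also summed by compartment. The 5 mitochondrial enzymes made up 64.6, 66.4 and 65.3% of the summed TPM of the 7 folate enzymes in the NC libraries of the NONO experiment and 62.2, 62.0 and 61.1% after knockdown. The share was lower in every NONO-knockdown library. In the PKM2 experiment the share was 66.4, 65.9 and 67.2% in NC libraries and 74.1, 73.0 and 73.1% after knockdown, higher in every library. The cytosolic sum of SHMT1 and MTHFD1 went from 180 ± 4.83 to 126 ± 1.86 TPM after PKM2 knockdown, while the mitochondrial sum was 358 ± 7.73 and 349 ± 12.2 (SD, n = 3) with overlap. After NONO knockdown the mitochondrial sum went from 363 ± 5.72 to 326 ± 8.49 TPM and the cytosolic sum was 192 ± 7.73 and 202 ± 8.10 with overlap. SHMT2 makes up most of the mitochondrial sum and MTHFD1 most of the cytosolic one, at 156.0 TPM in NC cells of the PKM2 experiment and 108.1 after knockdown. The shares therefore largely follow these enzymes and not each compartment as a whole, and the mitochondrial MTHFD1L fell after PKM2 knockdown. They are a description with no test.

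**Figure D4:**
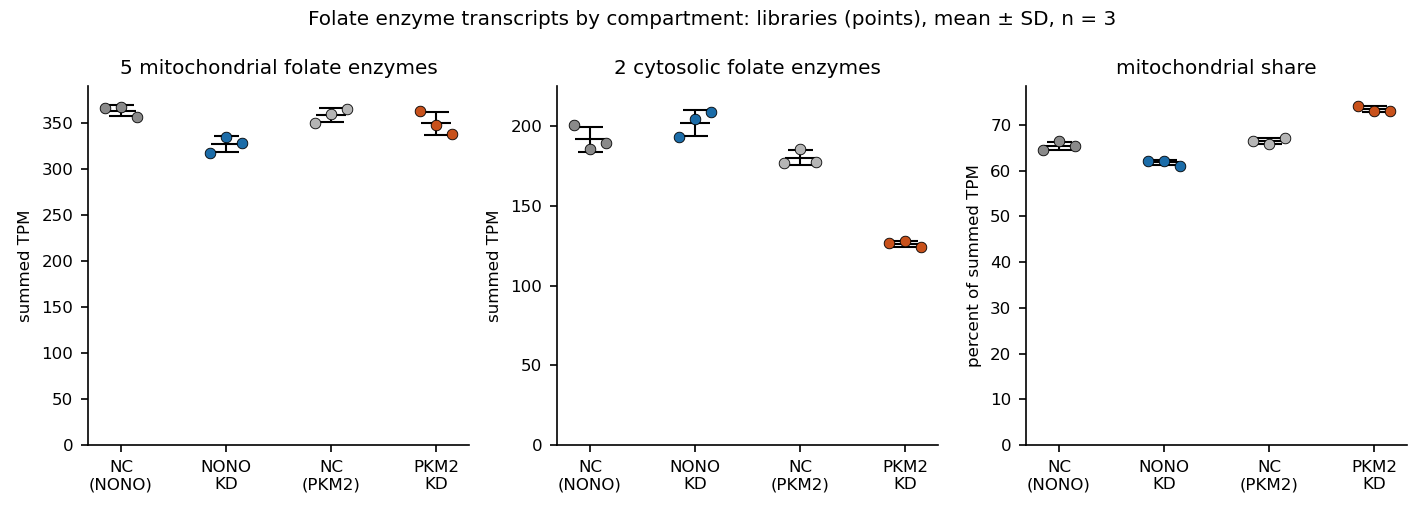
Summed TPM of the 5 mitochondrial and the 2 cytosolic folate enzymes and the mitochondrial share in percent, by library (points) with the mean ± SD (n = 3), on axes from 0. The PKM2-knockdown libraries sit at 124.5 to 128 cytosolic TPM, all below their NC libraries, and at a mitochondrial share of 73.0 to 74.1%.

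The genes around the enzymes were taken from 7 lists of 78 genes, of which 66 passed the filter. After NONO knockdown 27 of the 66 were called, 11 raised and 16 lowered, and after PKM2 knockdown 49, with 24 raised and 25 lowered. Both shares are near the backgrounds of 33.4% and 68.4%.

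Among 13 tested genes for folate uptake and use, 3 rose and 2 fell after NONO knockdown (median 0.06, log2) and 2 rose and 5 fell after PKM2 knockdown (median 0.07). TYMS, which uses a folate carbon unit to make thymidylate, fell by 1.45 ± 0.054 on the log2 scale after PKM2 knockdown (edgeR, adjusted P = 1.03e-09) and rose by 0.28 ± 0.059 after NONO knockdown (edgeR, adjusted P = 0.00374). SLC46A1, the proton-coupled folate transporter, fell after both, by 2.65 ± 0.115 after PKM2 knockdown and 0.66 ± 0.094 after NONO knockdown (edgeR, adjusted P = 3.07e-09 and 0.000315).

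Among 10 tested genes for glycine cleavage and serine and glycine handling, 4 fell after NONO knockdown (median -0.115), and 3 rose and 5 fell after PKM2 knockdown (median -0.193). SFXN1, the carrier that brings serine into mitochondria, fell by 1.14 ± 0.056 on the log2 scale after NONO knockdown (edgeR, adjusted P = 1.57e-07) and gave -0.01 ± 0.047 after PKM2 knockdown (edgeR, adjusted P = 0.877). Its relatives SFXN2 and SFXN3 fell after PKM2 knockdown by 2.26 ± 0.139 and 1.31 ± 0.054 (edgeR, adjusted P = 4.96e-08 and 2.07e-09), and SFXN2 also fell after NONO knockdown by 0.49 ± 0.144 (edgeR, adjusted P = 0.0218). The interaction was called for all 3, at 1.12 for SFXN1, -1.78 for SFXN2 and -1.21 for SFXN3. AMT, a subunit of the glycine cleavage system, fell after PKM2 knockdown (-1.15 ± 0.321) from at most 54.4 counts per library, and SLC25A38, the mitochondrial glycine carrier, rose (0.90 ± 0.063).

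Among 13 tested genes of purine synthesis, 4 rose after NONO knockdown (median 0.09), and 5 rose and 6 fell after PKM2 knockdown (median -0.04). IMPDH1, an isoform of the enzyme that leads to guanine nucleotides, fell by 2.00 ± 0.066 on the log2 scale after PKM2 knockdown (edgeR, adjusted P = 4.62e-10), while the second isoform IMPDH2 rose by 0.45 ± 0.055 (edgeR, adjusted P = 1.46e-05). After NONO knockdown IMPDH1 gave 0.09 ± 0.058 (edgeR, adjusted P = 0.256) and IMPDH2 rose by 0.41 ± 0.040 (edgeR, adjusted P = 2.03e-05). The adenylosuccinate synthases split in the same manner after PKM2 knockdown, with ADSS1 at -1.90 ± 0.306 and ADSS2 at 0.56 ± 0.046, where ADSS1 had at most 61 counts in a library of that experiment.

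Among 6 tested genes of the methionine cycle and transsulfuration, 2 rose and 2 fell after NONO knockdown (median 0.124), and 1 rose and 4 fell after PKM2 knockdown (median -0.489). MAT2B, the regulatory subunit of methionine adenosyltransferase, rose after both by 0.38 ± 0.045 and 0.41 ± 0.046 (edgeR, adjusted P = 9.98e-05 and 8.9e-06). AHCYL2, a homologue of the hydrolase that clears S-adenosylhomocysteine, fell after both by 0.64 ± 0.101 and 1.27 ± 0.117 (edgeR, adjusted P = 0.000616 and 1.45e-06). CTH, which makes cysteine, fell by 0.78 ± 0.154 after NONO knockdown (edgeR, adjusted P = 0.00248).

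Of the 4 glycolytic genes next to 3-phosphoglycerate, PGK1, which produces it, rose after NONO knockdown by 0.15 ± 0.048 (edgeR, adjusted P = 0.0357). After PKM2 knockdown the enolases went in opposite directions, with ENO1 rising by 0.28 ± 0.047 and ENO2 falling by 0.62 ± 0.058 (edgeR, adjusted P = 0.0002 and 1.67e-06). Copies of PGK1 and ENO1 elsewhere in the genome may take some of their reads.

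ATF4 is the stress transcription factor known to raise PHGDH, PSAT1, SHMT2 and MTHFD2. It rose by 1.19 ± 0.076 on the log2 scale after PKM2 knockdown (edgeR, adjusted P = 6.67e-08), from 330.5 to 703.6 TPM on average, and gave 0.07 ± 0.050 after NONO knockdown (edgeR, adjusted P = 0.358). Of the 18 genes in the list of ATF4 and its stress targets, all tested, 11 rose and 4 fell after PKM2 knockdown (median 0.775), and 1 rose and 7 fell after NONO knockdown (median -0.193). The list also holds the kinases EIF2AK3 and EIF2AK4, which act upstream of ATF4, so these counts and medians are not of targets alone. Over all genes tested 33.6% were raised and 34.7% lowered after PKM2 knockdown, and 16.2% and 17.2% after NONO knockdown. The difference between the knockdowns was called for 12 of the 18, against 53.1% of all genes.

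The genes that rose most after PKM2 knockdown were PPP1R15A, a phosphatase subunit that ends translational arrest (2.42 ± 0.154), and the transcription factors DDIT3 (2.05 ± 0.191), ATF3 (1.76 ± 0.263) and ATF5 (1.37 ± 0.077), followed by ATF4 itself, TRIB3 (1.14 ± 0.096) and NUPR1 (1.13 ± 0.213). The other risers were the amino acid transporter subunits SLC3A2 (0.89 ± 0.069) and SLC7A11 (0.795 ± 0.094), the transcription factor CEBPB (0.75 ± 0.058) and the kinase EIF2AK4 (0.275 ± 0.052). CHAC1, a glutathione-degrading enzyme, fell (-1.57 ± 0.543, edgeR, adjusted P = 0.0229), as did the kinase EIF2AK3 (-1.40 ± 0.075), the lipoprotein receptor VLDLR (-1.21 ± 0.129) and the transporter SLC7A5 (-0.595 ± 0.065). ASNS, which makes asparagine, gave -0.16 ± 0.111 (edgeR, adjusted P = 0.21), and SESN2 and DDIT4 were not called either. After NONO knockdown CEBPB fell by 1.35 ± 0.201, ASNS by 0.80 ± 0.182, VLDLR by 0.77 ± 0.174, CHAC1 by 0.76 ± 0.170, EIF2AK3 by 0.51 ± 0.078, SLC7A5 by 0.48 ± 0.052 and SLC7A11 by 0.32 ± 0.048, and NUPR1 rose by 0.99 ± 0.329 (edgeR, adjusted P = 0.0374). ASNS, SLC3A2, SLC7A11, SLC7A5, EIF2AK4, SESN2 and DDIT4 lie outside the naming rule and were added after their values were seen, so that each gene in these counts is named.

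The enzymes named above as raised by ATF4 need not be a full list, and they gave small values on the count scale after PKM2 knockdown. PHGDH gave 0.10, PSAT1 -0.05 and MTHFD2 0.09, none of which was called, and SHMT2 rose by 0.18. PSPH gave 0.32, and MTHFD1L, with the composite element in the window shown, gave -0.80. The part of ATF4 in these values was not tested. MYC, which binds E-boxes, gave -0.03 ± 0.055 and -0.30 ± 0.152 after the NONO and PKM2 knockdowns (edgeR, adjusted P = 0.756 and 0.103). NFE2L2, an antioxidant regulator that also acts on serine synthesis, fell by 0.13 ± 0.043 after NONO knockdown and rose by 0.35 ± 0.059 after PKM2 knockdown (edgeR, adjusted P = 0.0414 and 0.000225).

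Over the 7 lists the number of genes called after NONO knockdown was 42 without the first NC library and 17 without the second NONO-knockdown library, against 27 with all 6. Over all genes the same fits called 6249 of 15170 and 3554 of 15149, against 4954 of 14832 with all 6 libraries. The lists were drawn up with earlier results of these data known, and their counts were not tested as sets.

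**Figure D5:**
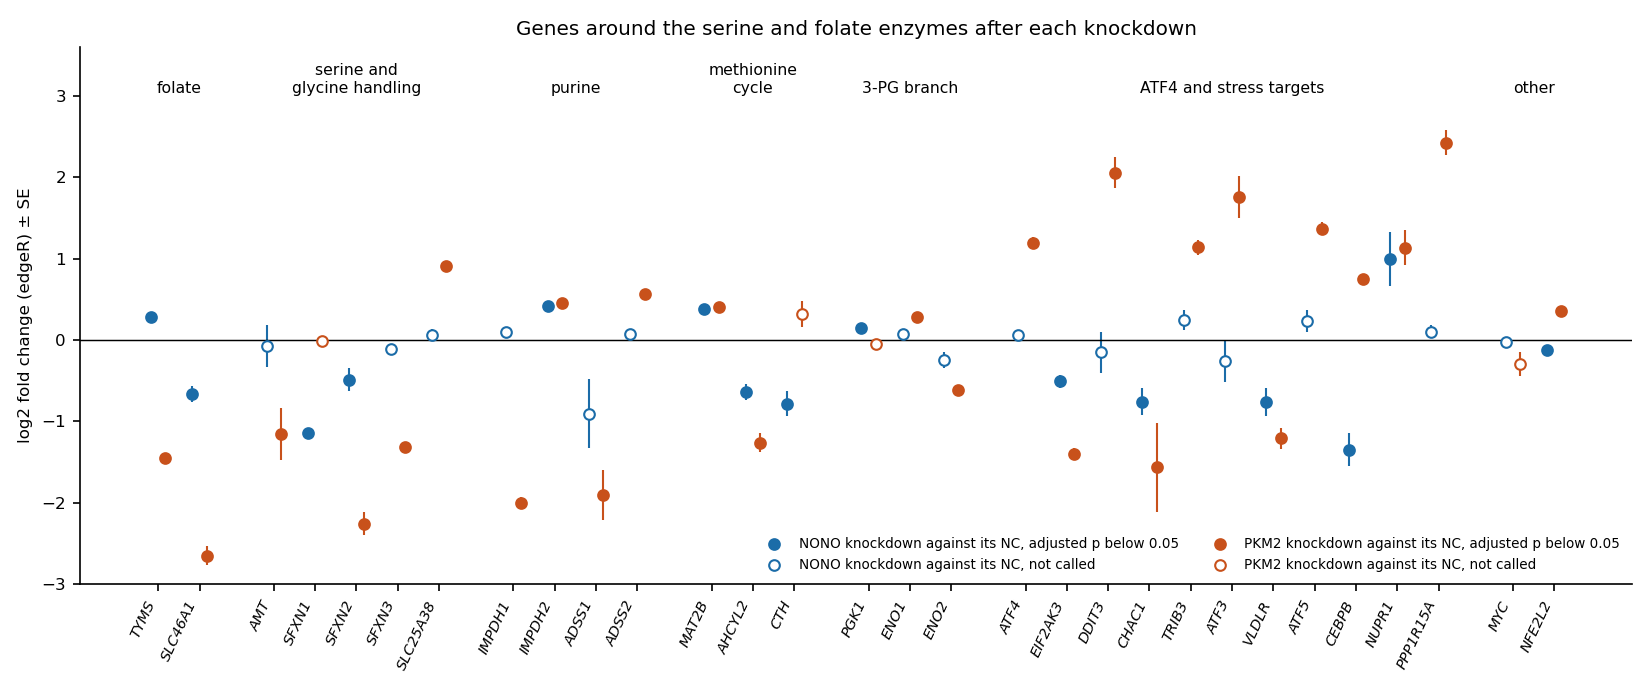
The log2 fold change ± SE (edgeR) of genes that the naming rule took from the 7 lists, after NONO knockdown (blue) and PKM2 knockdown (orange). Filled points have an adjusted P below 0.05. PPP1R15A lies highest at 2.42 and SLC46A1 lowest at -2.65, both after PKM2 knockdown.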

How the data were processed

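RNA-seq was analysed for 12 poly(A)-selected libraries read as pairs of 150 bases. The 2 deposited tables, 1 per experiment, give the authors' estimated count and TPM of every gene in each library. They also hold the authors' fold changes, P values and group means, which were not used. The submitters' processing notes name fastp, HISAT2, StringTie, RSEM, DESeq2, edgeR, limma and the build hg19, without roles or versions. Strand handling was not given in the sources used here. Columns were assigned to libraries by the table and column name, and 0 columns with values per library were left unused.

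Estimated counts were rounded and tested with edgeR 4.0.16 in R 4.3.3 (quasi-likelihood, TMM, filterByExpr defaults), on the 6 libraries of each experiment, with Benjamini-Hochberg adjustment over all genes tested. The SE was computed from the F statistic. The difference between knockdowns was an interaction term over 12 libraries. The study calculated expression as TPM and called genes by fold change and P value, and here the deposited counts were tested instead. Alternatives were DESeq2 1.42.0, RLE factors, no filter, a replicate block, limma 3.58.1 on log2(TPM + 1) or log2(TPM + 0.1), removal of the trend over 20 bins of length and of GC content, the study's cutoff (over 2-fold, unadjusted P below 0.05), and each library left out. The edgeR and DESeq2 procedures were tested on simulated counts. The changes set in them were larger than any enzyme change here, so recovery of smaller changes was not tested. Gene spans come from GENCODE 29 on GRCh38 and served for location only, as the submitters name hg19. Upstream windows come from the RefSeq table.

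The enzymes, the gene lists and the tests were chosen with earlier results of these data known. The genes named were the 10 enzymes, the targeted genes, the pseudogenes of the enzymes, and ATF4, MYC and NFE2L2. In each list and experiment the called genes with the largest rise and fall were also named, with any called gene changed over 2-fold, and exceptions are marked. Genes that this rule takes from the folate list are in its counts but are in part not reported here by name.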

Additional observations from a re-analysis of the deposited data

Results flagged for a closer look

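For 8 of the 9 enzymes tested, the change after PKM2 knockdown differed from the change after NONO knockdown in the interaction test (edgeR, adjusted P below 0.05, against 53.1% of all genes tested). On the log2 scale the PKM2 change minus the NONO change was -0.97 for MTHFD1L, -0.63 for MTHFD1 and -0.40 for SHMT1. It was 0.51 for PSPH, 0.30 for PHGDH, 0.29 for MTHFD2L, 0.26 for SHMT2 and 0.26 for MTHFD2. With limma on log2(TPM + 1) the difference was called for MTHFD1L, MTHFD1, SHMT1 and SHMT2, and it was not called for PSPH (0.40), PHGDH (0.21), MTHFD2L (0.21) and MTHFD2 (0.05). Over all genes that limma fit called 6438 of 14091, so the count of enzymes on this scale is near its background.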

How the results depend on the processing

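DESeq2, RLE factors, no filter, the replicate block, the length and GC trend and the PSPHP1 counts left each of the 3 counts of enzymes called within 1.5 times its value. With limma on log2(TPM + 1) and on log2(TPM + 0.1), 4 enzymes differed between the knockdowns in place of 8, and without the TPM filter 3 did. Over all genes 6438 and 6443 of 14091 differed in these fits, and 5802 of 31578 without the TPM filter. Without that filter 2 enzymes were called after NONO knockdown in place of 4 and 3 after PKM2 knockdown in place of 6. Over all genes limma called 2645 and 2657 of 13786 after NONO knockdown with pseudocounts of 1 and 0.1. Without the filter it called 1699 of 27378, against 4954 of 14832 with edgeR. After PKM2 knockdown it called 8312 of 29763 without the filter, against 10614 of 15524 with edgeR. The cutoff of a fold change above 2 left 0 enzymes in both experiments. Leaving out 1 library gave 1 to 5 enzymes and 17 to 42 list genes after NONO knockdown, always 6 enzymes after PKM2 knockdown, and 7 to 8 that differed. Over all genes such fits called from 3554 of 15149 to 6249 of 15170 after NONO knockdown. They called from 9891 of 15861 to 10863 of 15912 after PKM2 knockdown, and from 7969 of 16569 to 8526 of 16192 differed. The sign turned on the TPM scale for 3 enzymes that were not called, MTHFD2L after NONO knockdown (-0.03 in all 3 limma fits) and PHGDH (-0.06, -0.07 and -0.06) and MTHFD2 (-0.15 in all 3) after PKM2 knockdown. It also turned for SFXN1 after PKM2 knockdown with DESeq2 (0.01). With single libraries left out it turned for SFXN1 (-0.04 to 0.01), for AMT (-0.25 to 0.12), DDIT3 (-0.40 to 0.12) and MYC (-0.07 to 0.03) after NONO knockdown, and for the interaction of IMPDH2 (-0.01 to 0.09) and NUPR1 (-0.13 to 0.40), none of which was called. As CPM per kilobase of the length in the tables, the mitochondrial shares were 77.7 and 75.2% for the NC and knockdown cells of the NONO experiment and 77.3 and 83.2% for those of the PKM2 experiment, against 65.4, 61.8, 66.5 and 73.4% in TPM, with the same directions. The replicate numbers share a number only, as the deviations of same-numbered libraries correlated between -0.0655 and 0.0365. With the replicate number as a block MTHFD2 (adjusted P = 0.0557), NUPR1 (0.0604) and NFE2L2 (0.0755) were not called after NONO knockdown, nor was the interaction of MTHFD2L (0.0568). The causes were not tested. ALDH1L2, at 0 to 6 counts per library, was not tested, since its level was too low for a change to be detected at this depth.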
